A study of Mus musculus with 8 samples.

Results

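Cohesin is the ring-shaped protein complex that holds sister chromatids together. The 10 genes described here are its subunits and the factor that takes it off chromosomes, chosen by name from the 40840 genes in the count tables. *Stag3*, *Rec8*, *Smc1b* and *Rad21l* are the 4 meiosis-specific subunits. *Smc1a*, *Smc3*, *Rad21*, *Stag1* and *Stag2* are the 5 ubiquitous subunits, used in mitosis and in all dividing cells, and *Wapl* encodes the release factor. All 10 passed the filter on low counts.

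RNA was sequenced from whole testes of 8 independent C57BL/6J mice taken at 12 days of age (P12), when the first wave of germ cells has entered meiotic prophase. Every mouse carried a floxed allele. The 4 wild type mice carried a floxed and an intact *Tra2b* allele (*Tra2bPE* fl/+) and no Cre. The 4 *Tra2b-cPEko* mice carried a floxed allele, an allele whose poison exon was already deleted, and *Vasa-Cre* (*Tra2b* fl/-;*Vasa-Cre*). A poison exon is a noncoding exon that carries a stop codon and sends the transcript to decay. *Vasa-Cre* acts in germ cells, so somatic cells of the *Tra2b-cPEko* testis keep the poison exon on the floxed allele. The transgene was present in the *Tra2b-cPEko* group only, and its effect and that of the deletion cannot be told apart.

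Cohesin rings are built from an Smc1-type and an Smc3-type rod, closed by a kleisin and bound by a Stag protein. *Smc3* serves in every ring, and meiotic cells exchange its partners: *Smc1b* stands in for *Smc1a*, *Rec8* or *Rad21l* for the kleisin *Rad21*, and *Stag3* for *Stag1* or *Stag2*. Meiotic rings hold sister chromatids together during meiosis and form the base on which the chromosome axis and synaptonemal complex assemble.

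Several meiosis-specific genes, *Stag3* and *Smc1b* among them, are kept silent outside the germ line by a repressor complex that contains E2f6 and Max, so motifs of those factors were looked up in the 250 bases before the RefSeq start (promoter table of build GRCm38.p6, which matched 8 of the 10 genes, *Rad21* and *Stag2* being left out). The 4 windows shown here were placed in GRCm39 by exact match, run 5′ to 3′ on the gene's strand, and have the motif letters in capitals. The E-box CACGTG stood 170 bases before the *Stag3* start at chr5:138278589-138278618, plus strand.
*Stag3* E-box: cgcgctggagccCACGTGacaggactgcac
The E2F motif TTGGCGC stood on the opposite strand, 79 bases before the *Stag3* start, at chr5:138278681-138278710, plus strand.
*Stag3* E2F: gagctcgcgctGCGCCAAgtctcgcgacac
The E2F motif TTCCCGC stood 48 bases before the *Smc1b* start at chr15:85016188-85016217, minus strand.
*Smc1b* E2F: aaaagaatttcTTCCCGCgctttttttttt
The same motif stood 16 bases before the start of the ubiquitous *Stag1* at chr9:100525471-100525500, plus strand.
*Stag1* E2F: gcaaaaggccacgtTTCCCGCgccgctgct
The GENCODE start of *Stag3* lies further upstream, so both *Stag3* windows lie wholly in an annotated exon. The *Smc1b* window has 17 of its 30 bases in an exon, and the *Stag1* window lies in an intron.

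Searched on both strands, CACGTG was held by 6.02% of the 32851 promoters of the table, TTGGCGC by 1.97% and TTCCCGC by 3.82%. No other of the 8 genes held these letters in its window. The Sp1 GC box GGGCGG was held by *Smc1a*, *Smc3*, *Stag1* and *Wapl*, against 32.7% of all promoters, and CCAAT by 6 of the 8, against 33.8%. The Creb motif TGACGT was in none of the 8 and in 6.47% of all promoters. *Rad21l* had a G and C share of 25.6% in this window, against a median of 52.4% over all promoters.

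**Figure D1:**
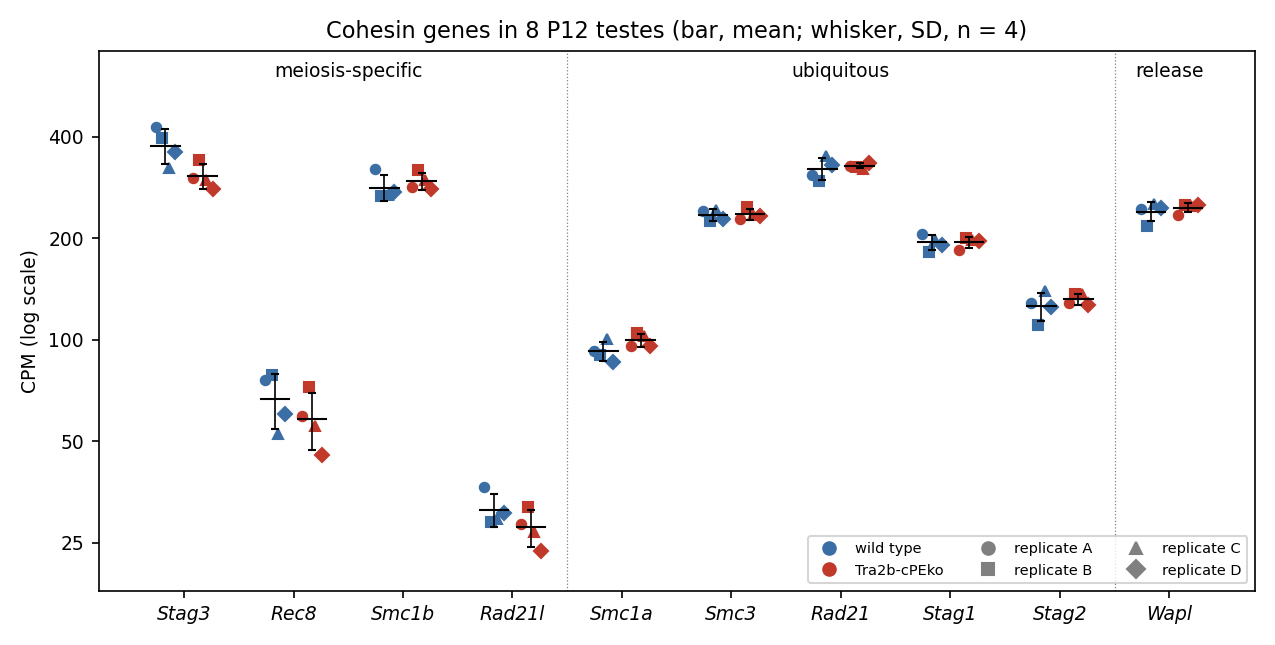
Normalised read counts (CPM, log axis) of the 10 cohesin genes in each of the 8 mice, with wild type in blue and *Tra2b-cPEko* in red, marker shape giving the replicate letter, and bars and whiskers the mean and SD of 4 mice. *Stag3* lies lower in most *Tra2b-cPEko* mice, and the genotypes overlap for every gene shown.

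The first question was whether the cohesin genes differed in expression between the genotypes. Levels are given as CPM, the read count scaled to the library total with TMM factors, and differences come from edgeR's quasi-likelihood test across the 19104 genes tested. None of the 10 passed an adjusted p of 0.05, a threshold passed by 0.157% of all genes tested. DESeq2, which the study used, called *Stag3* alone, where it called 2.79% of the 18149 genes it tested. *Stag3* was also the only member with an unadjusted edgeR p under 0.05, against 15.3% of all genes tested. The CPM values of the genotypes overlapped for all 10 genes, and did not overlap for 8.54% of all genes tested.

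Libraries held between 36757386 and 59101569 reads on genes, and no cohesin gene had fewer than 867 counts in a mouse. Marker genes of spermatogonia, of leptotene, zygotene and pachytene spermatocytes and of Sertoli, Leydig, peritubular, endothelial and macrophage cells were all detected. *Tra2b* itself was at 164 ± 8.93 CPM in wild type and 198 ± 8.49 CPM in *Tra2b-cPEko* testes (SD, n = 4 each, log2 fold change 0.27, edgeR adjusted p = 0.0552), and the genotypes did not overlap. DESeq2 called it (adjusted p = 0.000195), as did edgeR without the low-count filter (0.0128), with upper-quartile factors (0.0318), with the replicate block (0.0452), and when either *Tra2b-cPEko* replicate B (0.0487) or wild type replicate D (0.0488) was left out. In the 10 other settings, fitted with edgeR or limma-voom, *Tra2b* was not called (adjusted p from 0.0511 to 0.162). A count per gene does not resolve the poison exon, so it does not check the deletion.

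*Stag3* (ENSMUSG00000036928, GRCm39 chr5:138278502-138310655) encodes the Stag subunit of meiotic cohesin. It was at 426, 396, 323 and 361 CPM in wild type replicates A to D. In *Tra2b-cPEko* replicates A to D it was at 302, 341, 297 and 279.5 CPM. Of the *Tra2b-cPEko* mice only replicate B reached into the wild type range, where it stood above wild type replicate C.

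The *Stag3* means were 377 ± 44.4 CPM and 305 ± 26.0 CPM (SD, n = 4 each), a difference of -19.0% with a 95% interval from -29.0% to -7.63%. The log2 fold change was -0.30 ± 0.09 (SE, edgeR adjusted p = 0.159). With DESeq2 it was -0.31, with an adjusted p of 0.0256. An exact permutation test of log2 CPM, two-sided, gave p = 0.0571, where 0.0286 is the smallest p that 70 arrangements of the 8 mice allow, and 10 such tests, 1 per gene, were run without adjustment.

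The call of *Stag3* by DESeq2 was lost when any of 5 mice was left out: wild type replicate A (adjusted p = 0.157) or B (0.107), or *Tra2b-cPEko* replicate A (0.0933), C (0.130) or D (0.140). *Stag3* is also among the meiosis genes that the study listed as lower from these same samples, so its direction is not independent evidence.

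*Rec8* encodes the kleisin that is cleaved at the meiotic divisions and lies at chr14:55855455-55862852. Its level varied most among the 10 genes. The wild type replicates A to D were at 76.1, 78.6, 52.7 and 60.01 CPM, and the *Tra2b-cPEko* replicates at 59.5, 72.3, 55.3 and 45.4 CPM. Each genotype thus held mice at both high and low levels, and the ranges overlapped. The means were 66.8 ± 12.5 and 58.1 ± 11.1 CPM (SD, n = 4 each), with a log2 fold change of -0.20 ± 0.18 (SE, edgeR adjusted p = 0.630). Differences between -34.7% and 16.1% lie within the 95% interval, so the data do not set the direction of *Rec8*. Leaving out 1 mouse moved its log2 fold change to -0.10 (*Tra2b-cPEko* replicate D), -0.11 (wild type replicate B), -0.30 (wild type replicate C) or -0.32 (*Tra2b-cPEko* replicate B).

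*Rad21l* encodes the other meiotic kleisin, present in early prophase, and lies at chr2:151487324-151510453. It was the lowest of the 10 genes in CPM. Wild type replicates A to D were at 36.5, 28.7, 29.4 and 30.6 CPM, and *Tra2b-cPEko* replicates at 28.5, 31.9, 26.9 and 23.6 CPM. *Tra2b-cPEko* replicate B stood above 3 of the 4 wild type mice. *Rad21l* had a log2 fold change of -0.18 ± 0.10 (SE, edgeR adjusted p = 0.412), with a 95% interval from -23.5% to 2.55%. It was -0.10 without wild type replicate A and -0.11 without *Tra2b-cPEko* replicate D.

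*Smc1b*, the meiotic Smc1 rod, lies at chr15:84948882-85016204 on the minus strand. It was at 320.0, 267, 268 and 274 CPM in wild type replicates A to D. It was at 283, 319, 299 and 280.5 CPM in *Tra2b-cPEko* replicates A to D. Apart from wild type replicate A, each wild type mouse was below each *Tra2b-cPEko* mouse. *Smc1b* had a log2 fold change of 0.06 ± 0.06 (SE, edgeR adjusted p = 0.659), and the 95% interval ran from -4.90% to 14.9%. It ran from 0.02 (without *Tra2b-cPEko* replicate B) to 0.13 (without wild type replicate A) when single mice were left out.

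Of the 4 meiosis-specific subunits, 3 thus had a lower estimate and 1 a higher one, none passing the edgeR threshold. Their median log2 fold change was -0.19, against -0.0011 over all genes tested, of which 9489 were higher and 9615 lower. That median was -0.10 without *Tra2b-cPEko* replicate D, -0.11 without wild type replicate A and -0.29 without *Tra2b-cPEko* replicate B. The middle 90% of all genes tested lay between -0.32 and 0.43, and all 4 subunits were inside it. A whole testis does not separate fewer germ cells at a stage from less RNA per germ cell, and these cannot be told apart for any gene given here.

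**Figure D2:**
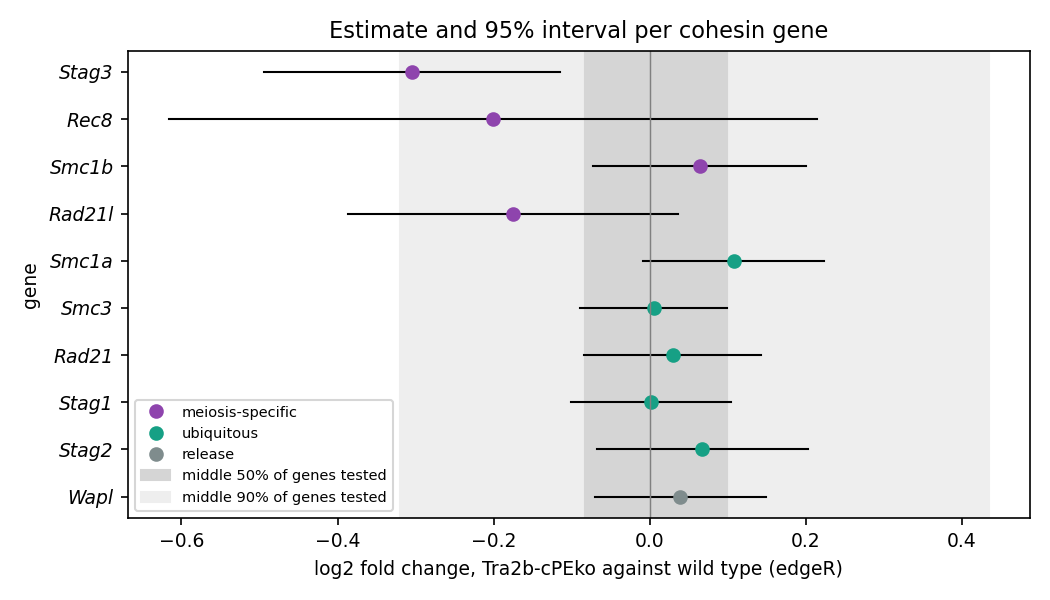
Log2 fold change of *Tra2b-cPEko* against wild type (edgeR, x axis) with its 95% interval for each cohesin gene, over bands that hold the middle 50% and 90% of all genes tested. The interval of *Stag3* lies below 0, from -0.49 to -0.11, and those of the other 9 genes include 0.

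Of the ubiquitous subunits, *Smc1a*, the mitotic Smc1 rod on the X chromosome (chrX:150799424-150846390), had the largest estimate. It was at 92.8, 90.3, 100.7 and 86.1 CPM in wild type and at 95.9, 104.5, 102.4 and 95.8 CPM in *Tra2b-cPEko* replicates A to D. Only wild type replicate C reached the *Tra2b-cPEko* levels. Its log2 fold change was 0.11 ± 0.05 (SE, edgeR adjusted p = 0.358), and the 95% interval ran from -0.551% to 16.8%.

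*Smc3*, the rod shared by meiotic and mitotic rings (chr19:53588818-53634295), was at 242, 225, 243 and 229 CPM in wild type replicates A to D and at 227, 247, 234 and 233 CPM in *Tra2b-cPEko* replicates A to D. These ranges nearly coincided, and the log2 fold change was 0.01 ± 0.04 (SE, edgeR adjusted p = 0.968), and a difference beyond -5.98% to 7.15% lies outside the 95% interval.

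*Rad21*, the mitotic kleisin (chr15:51825636-51855179), was at 308, 296, 351 and 331 CPM in wild type replicates A to D and at 329, 326, 322 and 335 CPM in *Tra2b-cPEko* replicates A to D. The *Tra2b-cPEko* mice all lay inside the wild type range, and the log2 fold change was 0.03 ± 0.05 (SE, edgeR adjusted p = 0.833), with a 95% interval from -5.65% to 10.4%.

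The mitotic Stag subunits were close to level as well. *Stag1* (chr9:100479740-100841428) had means of 195 ± 10.2 and 195 ± 7.26 CPM (SD, n = 4 each), in wild type replicates A to D 207, 183, 198 and 191 CPM, and in *Tra2b-cPEko* replicates 184, 201, 198 and 196 CPM. Its log2 fold change was 0.0012 (edgeR adjusted p = 0.994, 95% interval -6.78% to 7.44%). *Stag2* (chrX:41238146-41368132) was at 128, 111, 139.7 and 125 CPM in wild type and at 129, 136, 136 and 127 CPM in *Tra2b-cPEko* replicates A to D. Its log2 fold change was 0.07 (edgeR adjusted p = 0.632, 95% interval -4.53% to 15.05%).

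*Wapl*, which opens the ring and releases it from chromosomes (chr14:34395458-34469941), was at 244, 217, 252 and 247 CPM in wild type and at 235, 251, 249 and 251 CPM in *Tra2b-cPEko* replicates A to D. All *Tra2b-cPEko* mice lay inside the wild type range. The log2 fold change was 0.04 (edgeR adjusted p = 0.751, 95% interval -4.77% to 10.9%). All 5 ubiquitous subunits had an estimate above 0, none passing the threshold, with a median of 0.03 (-0.0069 without wild type replicate B, 0.07 without wild type replicate C), and the signs of *Smc3*, *Rad21* and *Stag1* turned under some other settings.

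Exons of *Stag2* and *Wapl* overlap genes on the other strand (Gm37564 and 5830448L01Rik), and the strand setting of the counting was not stated. Near-identical stretches of other transcripts were found for *Stag3* (14 genes, at most 126 bases), *Smc1a* (50, at most 302 bases), *Smc1b* (4, at most 264 bases), *Smc3* (3, at most 616 bases), *Stag1* (3, at most 198 bases) and *Wapl* (1, 482 bases), which the counting could have split.

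The next comparison was within each mouse, as the rings are put together from subunits of both kinds. For each mouse, the mean log2 CPM of the 5 ubiquitous subunits was subtracted from that of the 4 meiosis-specific ones. The difference was -0.36, -0.41, -0.81 and -0.58 in wild type replicates A to D and -0.68, -0.57, -0.77 and -0.91 in *Tra2b-cPEko* replicates A to D. Wild type replicates A and B stood above all other mice, while wild type replicates C and D lay among the *Tra2b-cPEko* mice. The genotype means differed by -0.20 on this scale, and by -0.17 when CPM were summed before the logarithm was taken.

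Ratios between subunits that replace each other in the ring also overlapped between the genotypes. *Stag3* was 1.18 ± 0.171 times the summed CPM of *Stag1* and *Stag2* in wild type and 0.934 ± 0.0673 times in *Tra2b-cPEko* testes (SD, n = 4 each). *Smc1b* was 3.06 ± 0.332 times *Smc1a* in wild type and 2.96 ± 0.0610 times in *Tra2b-cPEko*. The summed meiotic kleisins *Rec8* and *Rad21l* were 0.309 ± 0.0656 times *Rad21* in wild type and 0.262 ± 0.0466 times in *Tra2b-cPEko*. Per kilobase of exon, *Smc1b* was 5.18 ± 0.562 times *Smc1a* in wild type, and the kleisin ratio was 0.513 ± 0.0970.

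Among the 6 pairs of meiosis-specific subunits, a comparison added after the values had been seen, the genotypes separated for 2. The CPM ratio of *Stag3* to *Smc1b* was 1.33, 1.48, 1.204 and 1.32 in wild type replicates A to D, and 1.07, 1.07, 0.996 and 0.997 in *Tra2b-cPEko* replicates A to D. Each *Tra2b-cPEko* mouse lay below each wild type mouse, and the mean ratio was lower by 22.6%. The ratio of *Smc1b* to *Rad21l* was 8.77, 9.32, 9.12 and 8.94 in wild type and 9.95, 9.99, 11.1 and 11.9 in *Tra2b-cPEko* replicates A to D. Here each *Tra2b-cPEko* mouse lay above each wild type mouse.

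The ratios of *Stag3* to *Rec8*, *Stag3* to *Rad21l*, *Rec8* to *Smc1b* and *Rec8* to *Rad21l* overlapped. Set against *Smc1b* in the same way, 6.06% of the 19103 other genes tested had ratios that did not overlap between the genotypes, and 2 of the other 9 cohesin genes did. As the pairs were picked with their values known, no test is given.

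**Figure D3:**
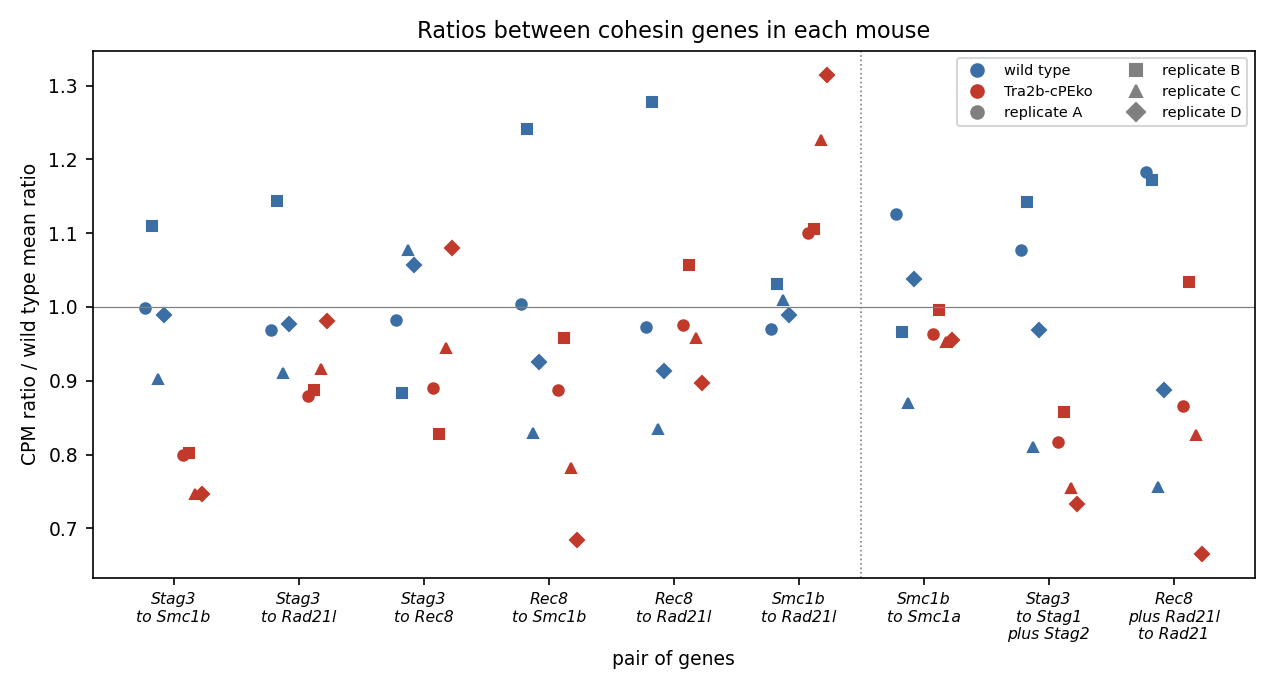
CPM ratio of each pair of cohesin genes in each mouse, divided by the wild type mean ratio (y axis), with wild type in blue, *Tra2b-cPEko* in red and marker shape giving the replicate. *Stag3* to *Smc1b* and *Smc1b* to *Rad21l* are the pairs without overlap, and the 7 others overlap.

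The meiosis-specific subunits mostly varied more between mice of a genotype than the ubiquitous ones, though *Smc1b* varied less than *Stag2* in wild type. Their coefficients of variation in CPM ran from 8.93% (*Smc1b*) to 18.7% (*Rec8*) in wild type and from 5.96% to 19.2% for the same genes in *Tra2b-cPEko*. Those of the ubiquitous subunits ran from 3.92% to 9.49% in wild type and from 1.73% to 4.46% in *Tra2b-cPEko*. *Tra2b-cPEko* replicate B was the highest and replicate D the lowest of its genotype for all 4 meiosis-specific subunits, an order shared by 8.67% of all genes tested. The ubiquitous *Smc1a* had the same order. Replicate B was also the highest *Tra2b-cPEko* mouse for *Smc3*, *Stag1* and *Wapl*, but not for *Rad21* and *Stag2*. Wild type replicate A was the highest of its genotype for *Stag3*, *Smc1b* and *Rad21l*, and replicate B for *Rec8*. Of the ubiquitous subunits, wild type replicate A was the highest for *Stag1*, and replicate C for the others.

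Markers of germ cell stages varied between the mice too. Of 15 markers of leptotene and zygotene spermatocytes, the stages at which chromosomes pair, 13 were lower and 2 higher in *Tra2b-cPEko*. None was called, and the median log2 fold change was -0.09. Their summed level ran from 2134 to 2887 CPM in wild type and from 2242 to 2333 CPM in *Tra2b-cPEko*, and their mean log2 CPM was 6.28, 6.17, 5.90 and 5.94 in wild type and 6.01, 5.92, 6.003 and 5.97 in *Tra2b-cPEko* replicates A to D. Wild type replicates A and B were thus high for these markers as for *Stag3* and *Rec8*. For *Smc1b* and *Rad21l*, however, wild type replicate B was the lowest of its genotype. *Tra2b-cPEko* replicate B was the lowest of its genotype for these markers and the highest for the 4 meiosis-specific subunits.

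**Figure D4:**
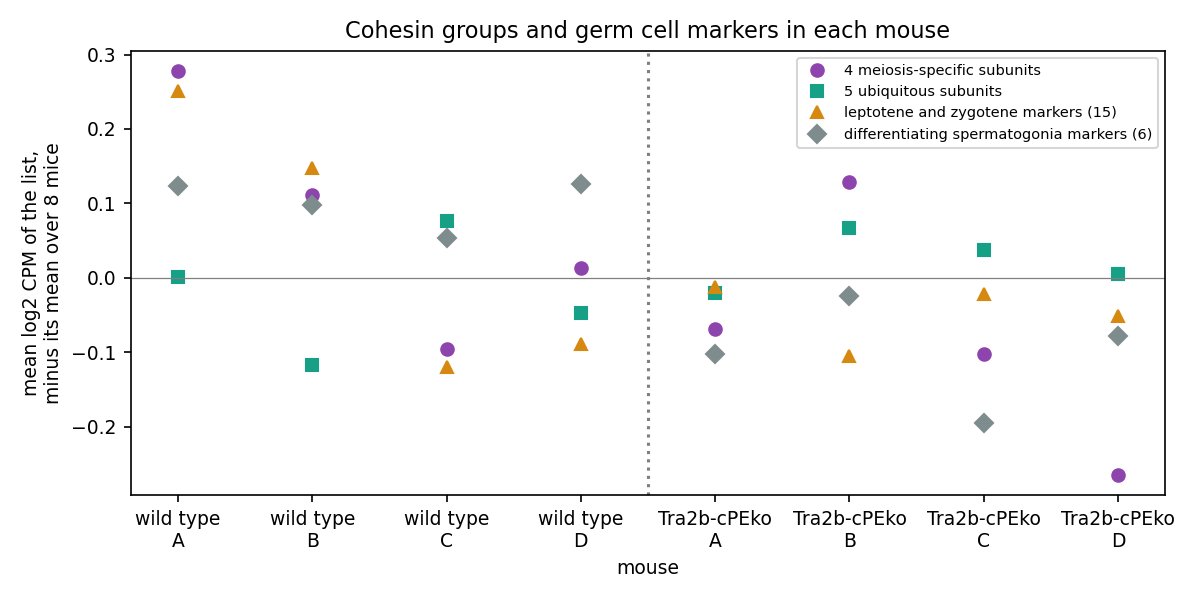
Mean log2 CPM of the meiosis-specific subunits, the ubiquitous subunits and 2 germ cell marker lists in each mouse (x axis), each minus its mean over the 8 mice (y axis). Wild type replicate A and *Tra2b-cPEko* replicate B are the highest mice of their genotype for the meiosis-specific subunits. Replicate B is also the highest *Tra2b-cPEko* mouse for the ubiquitous subunits. Only the differentiating spermatogonia markers separate the genotypes.

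A further scale, added after the values had been seen, set each gene against the mean of the leptotene and zygotene list in the same mouse. On it the log2 level of *Stag3* was 2.46, 2.46, 2.43 and 2.56 in wild type replicates A to D. It was 2.23, 2.50, 2.21 and 2.15 in *Tra2b-cPEko* replicates A to D. Replicates A, C and D of *Tra2b-cPEko* were below all wild type mice on this scale, and replicate B was above 3 of them. The difference of the means was -0.21 for *Stag3*, -0.11 for *Rec8*, -0.08 for *Rad21l* and 0.16 for *Smc1b*. None of the 10 genes was without overlap on this scale, as 5.52% of all genes tested were.

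Of the other marker lists, those of differentiating spermatogonia and macrophages had genotypes that did not overlap in mean log2 CPM. Of single genes tested, 8.54% did not overlap in CPM and 0.157% were called by edgeR. The share of list means that would not overlap was not computed. The 6 markers of differentiating spermatogonia were all lower, with *Sohlh1* called, and their mean log2 CPM was 6.11 to 6.19 in wild type and 5.87 to 6.04 in *Tra2b-cPEko*. Their summed level was 495 to 536 CPM against 421 to 490.3 CPM. The 6 macrophage markers were all higher, none called, with summed levels of 90.2 to 107.6 CPM in wild type and 107.7 to 132 CPM in *Tra2b-cPEko*. The part of these cells in the levels of the cohesin genes was not tested.

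The remaining lists overlapped between the genotypes in mean log2 CPM, and no defining marker of any list was at 0. Pachytene markers had summed levels of 203 to 356 CPM in wild type and 215 to 272 CPM in *Tra2b-cPEko* (7 of 8 tested lower, none called, *Pgk2* and *Adam3* not passing the filter). Undifferentiated spermatogonia, Sertoli, Leydig, peritubular myoid, endothelial and proliferating cell lists had medians of 0.02, -0.04, 0.43, 0.09, 0.05 and -0.01 on the log2 scale, with no gene called in any of them.

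Levels of the cohesin genes were then compared with each other as CPM per kilobase of the union of annotated exons. In wild type the order was *Rad21* (73.5 ± 5.59), *Stag3* (65.7 ± 7.75), *Smc1b* (48.2 ± 4.302), *Smc3* (40.8 ± 1.60), *Wapl* (32.3 ± 2.08), *Rad21l* (18.9 ± 2.14), *Rec8* (18.4 ± 3.45), *Stag1* (15.9 ± 0.833), *Stag2* (11.4 ± 1.08) and *Smc1a* (9.33 ± 0.620; SD, n = 4). The neighbours *Rad21* and *Stag3*, *Rad21l* and *Rec8*, *Rec8* and *Stag1*, and *Stag2* and *Smc1a* overlapped between mice, and the other neighbours did not. Meiotic *Stag3* and *Smc1b* were thus well above their ubiquitous counterparts in the whole testis, whereas the meiotic kleisins were well below *Rad21*.

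In *Tra2b-cPEko* testes the order was the same. *Stag3* was at 53.2 ± 4.54 and *Smc1b* at 50.4 ± 3.001 CPM per kilobase (SD, n = 4), and these neighbours now overlapped. *Rad21* at 75.003 ± 1.297 no longer overlapped with *Stag3*, nor *Stag2* with *Smc1a*. With the longest transcript as the length, *Smc1b* (72.1) stood above *Stag3* (65.3) in *Tra2b-cPEko* and below it in wild type (69.0 against 80.7), and the order among *Rad21l*, *Rec8*, *Stag1*, *Stag2* and *Smc1a* changed, so ranks in that lower group depend on the gene model.

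Other genes act on cohesin or belong to its sister complexes. Of 18 genes that load, acetylate, protect or cleave cohesin or position it on chromatin, 17 were tested (*Sgo2b* did not pass the filter), 4 were higher and 13 lower in *Tra2b-cPEko*, and none was called by edgeR or DESeq2. Their median log2 fold change was -0.06, with 1 gene at an unadjusted edgeR p under 0.05, against 15.3% of all genes tested. That gene was *Esco2*, an acetyltransferase that locks cohesin onto replicated DNA. It was at 103.5, 85.3, 87.4 and 86.1 CPM in wild type and at 74.8, 90.9, 79.2 and 76.0 CPM in *Tra2b-cPEko* replicates A to D, with *Tra2b-cPEko* replicate B alone inside the wild type range (log2 fold change -0.18, edgeR adjusted p = 0.302).

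*Ctcfl*, the germ line paralogue of the boundary factor *Ctcf*, had the lowest estimate of the list. It was at 24.2, 23.1, 15.5 and 20.8 CPM in wild type and at 14.0, 21.4, 13.5 and 12.9 CPM in *Tra2b-cPEko* replicates A to D. As for the meiosis-specific subunits, replicate B was the highest *Tra2b-cPEko* mouse. The log2 fold change was -0.44 ± 0.19 (SE, edgeR adjusted p = 0.335). *Esco1*, the other acetyltransferase, was at 83.7 ± 5.58 and 78.0 ± 1.28 CPM (SD, n = 4 each, log2 fold change -0.10, edgeR adjusted p = 0.362). The loader subunits *Nipbl* and *Mau2* and the shugoshin *Sgo2a*, which protects centromeric cohesin, had estimates of 0.07, 0.03 and 0.01, none called.

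Condensin compacts chromosomes, and the Smc5/6 complex acts in DNA repair. Of 8 condensin genes, 2 were higher and 6 lower, none called, none at an unadjusted p under 0.05, with a median log2 fold change of -0.04. The smallest p-values of that list belonged to *Ncapg2* (-0.09), *Smc4* (-0.08) and *Smc2* (0.06), which are log2 fold changes with adjusted p-values from 0.414 to 0.608 (edgeR). Of 8 Smc5/6 genes, 2 were higher and 6 lower, none called, with a median of -0.05. Of these, 1 was at an unadjusted edgeR p under 0.05, against 15.3% of all genes tested. *Nsmce4a* was at 78.0, 75.4, 72.4 and 75.8 CPM in wild type and at 68.8, 72.6, 70.3 and 70.1 CPM in *Tra2b-cPEko* replicates A to D, where 1 mouse of each genotype crossed into the range of the other (log2 fold change -0.10, edgeR adjusted p = 0.297). *Nsmce1* and *Nsmce2* had log2 fold changes of -0.10 and -0.07.

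**Figure D5:**
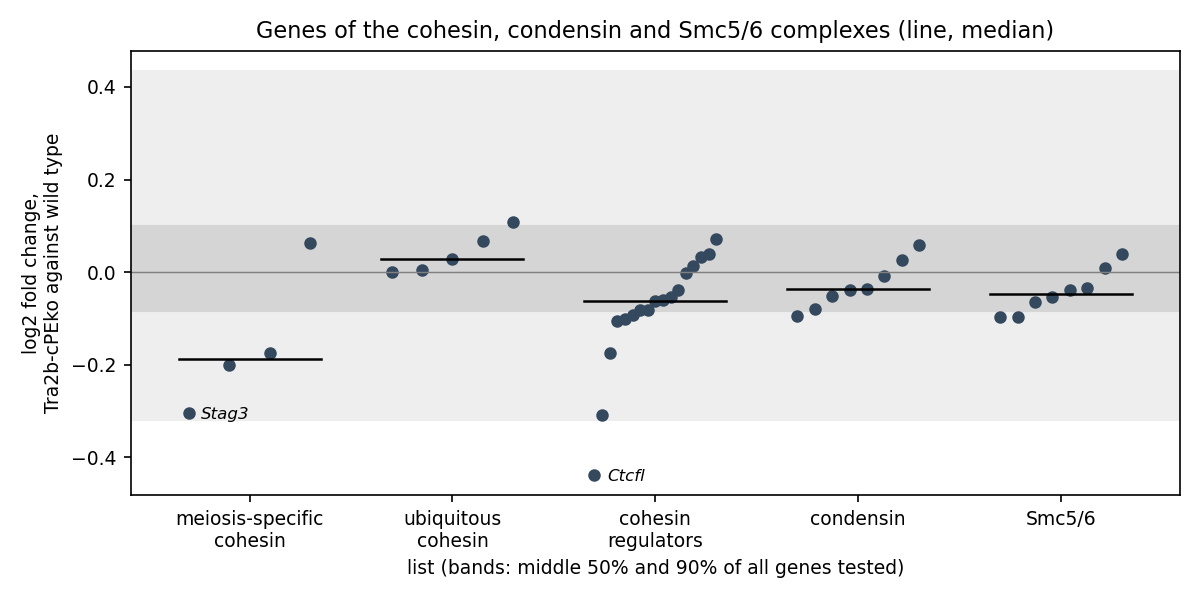
Log2 fold changes of *Tra2b-cPEko* against wild type (y axis) of single genes (points) in 5 lists, with the list median as a line and bands for the middle 50% and 90% of all genes tested. *Stag3* (-0.30) and *Ctcfl* (-0.44) are the lowest genes of their lists, and the ubiquitous subunits lie between 0.0012 and 0.11.

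Finally, the genes whose pattern over the 8 mice lay nearest to each meiosis-specific subunit were looked up among 19094 genes, by the root mean square difference of log2 CPM after centring on the mean of the 8 libraries. For *Stag3* they were *Rrm2*, a subunit of ribonucleotide reductase (0.0392), *Syce1*, a central element protein of the synaptonemal complex (0.0487), and *Tspan33* (0.0499). *Rrm2* was at 72.3, 67.9, 59.01 and 63.0 CPM in wild type and at 54.0, 61.4, 53.8 and 51.1 CPM in *Tra2b-cPEko* replicates A to D. As with *Stag3*, whose pattern it was picked to match, only *Tra2b-cPEko* replicate B stood above the lowest wild type mouse.

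For *Rec8* the nearest genes were *Syp* (0.0758), *Meiosin* (0.0830), which encodes the partner of Stra8 in starting meiosis, and 1700021L23Rik (0.0830). *Meiosin* was at 323, 275, 212 and 241 CPM in wild type and at 249, 282, 226 and 189.8 CPM in *Tra2b-cPEko* replicates A to D, with high and low mice in both genotypes. For *Smc1b* they were the motor protein gene *Myo5a* (0.0291), the chromatin remodelling gene *Baz1a* (0.0415) and *Alms1* (0.0424). For *Rad21l* they were *Ugt8a* (0.0512), *Phyhipl* (0.0514) and the peroxisomal carrier gene *Slc25a17* (0.0556). The 8 points of each pattern share their libraries and scaling, and the measure is a description with no test.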

How the data were processed

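Whole testis RNA of 8 P12 mice was made into TruSeq stranded mRNA libraries. The authors deposited raw read counts per gene, 1 table per mouse, with 40840 genes and 5 summary lines, which were left out. The submitters' processing notes name HISAT2 2.2.1, SAMtools 1.7.1 and HTSeq 2.0.2 with GRCm39. The paper's methods name Salmon, and the strand setting is not given in the sources used here. Reads on genes were 66.4% to 69.0% of all reads in the tables. Libraries of one genotype differed by at least 6.24 times counting noise, so no library was counted as a copy.

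Counts were tested in R 4.3.3 with edgeR 4.0.16 (filterByExpr with a least count of 10, TMM, robust quasi-likelihood fit, genotype as the only term, Benjamini-Hochberg adjustment over 19104 genes, threshold 0.05). A prior count of 2 went into log2 CPM for the marker lists, the levels relative to the leptotene and zygotene list, and the nearest genes. It was also used for the share of all genes set against *Smc1b*. The permutation tests and the group means of the cohesin subunits used log2 CPM without a prior count. The biological coefficient of variation was 9.56%. Alternatives were DESeq2 1.42.0, limma-voom (limma 3.58.1), other scaling factors (RLE, upper quartile), other filters (none, or a mean count of 50 or more), a fit that was not robust, a block for the replicate letter, and each mouse left out. Scripts were tested on simulated data. Mice of the 2 genotypes with the same replicate letter had little correlated deviations (-0.14 to 0.12), which cannot show whether the letters pair the mice. The labels give no litter or batch.

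The members, gene lists and tests were chosen with earlier results of these data known. All 10 members are named, with the called genes or the 3 smallest p-values of each pathway list, the 3 nearest genes of each meiosis-specific subunit, and *Tra2b*. Positions and exon lengths are from GENCODE vM39 on GRCm39, and copies were searched with BLAST+ 2.17.0 (95% identity over at least 50% of the other transcript). Protein identity between paralogues, which had been planned, was not computed. Figures were drawn with matplotlib 3.10.9 in Python 3.11.15.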

Additional observations from a re-analysis of the deposited data

Results flagged for a closer look

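Each group of 4 mice was screened for a mouse far from the others in CPM, by Dixon's test at 95%. Of 64 groups, 5 held such a mouse, where chance gives about 3.2, or 1 in 20, if groups are independent. They were not, as they include genes picked for a pattern near that of a member. *Smc1b* was at 320.0 CPM in wild type replicate A, with the other wild type mice at 267 to 274 CPM. *Myo5a*, the gene nearest to *Smc1b* in pattern, was at 120.9 CPM in the same mouse, with the others at 100.3 to 102.6 CPM. *Esco2* was at 103.5 CPM in wild type replicate A, with the others at 85.3 to 87.4 CPM. *Ctcfl* was at 21.4 CPM in *Tra2b-cPEko* replicate B, with the others at 12.9 to 14.0 CPM. *Wapl* was at 235 CPM in *Tra2b-cPEko* replicate A, with the others at 249 to 251 CPM.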

How the results depend on the processing

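The 10 cohesin genes were recomputed under 16 other settings, and 146 of the 160 values kept their direction and their side of the threshold. *Stag3* passed the threshold with DESeq2 alone (-0.31, adjusted p = 0.0256), and its log2 fold change ran from -0.37 to -0.24 with adjusted p-values from 0.0256 to 0.355 over all settings. DESeq2 without each mouse in turn, an alternative added after the data were seen, gave *Stag3* values from -0.37 to -0.24 and lost the call for 5 mice. Estimates near 0 changed sign. Without the low-count filter *Smc3* was at -0.0029 and *Stag1* at -0.0071, and with DESeq2 *Stag1* was at -0.0015. With single mice left out, *Smc3* ran from -0.0199 to 0.0210, *Stag1* from -0.0271 to 0.0300, *Rad21* from -0.0069 to 0.0724, *Wapl* from -0.0045 to 0.0613, *Baz1a* from -0.0068 to 0.0654 and *Alms1* from -0.0165 to 0.0895; the cause was not tested.

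The number of genes called over all genes tested was 30, and moved to 123 without the low-count filter, 58 with upper-quartile factors, 14 with a mean count of at least 50, 507 with DESeq2, 11 with limma-voom, 12 without robust estimation and 67 with the replicate block, and from 3 (without *Tra2b-cPEko* replicate D) to 84 (without wild type replicate C) with single mice left out, where only the fit without wild type replicate D stayed within 1.5 times. With the replicate letter as a block, *Stag3* was at -0.30 (adjusted p = 0.0806), and no call of a cohesin gene changed. With 4 mice a genotype, a p-value over the threshold does not show that a subunit was unchanged.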

Other observations

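Some genes other than the cohesin members were looked at after the values had been seen. Of these, *Ctcfl* came from the list of genes that act on cohesin. *Stra8*, the retinoic acid target that starts meiosis together with *Meiosin*, was at 198, 161, 149 and 162 CPM in wild type replicates A to D and at 139, 180.1, 118 and 116 CPM in *Tra2b-cPEko* replicates A to D (log2 fold change -0.28, edgeR adjusted p = 0.453). *Tra2b-cPEko* replicate B was the highest and replicate D the lowest of its genotype for *Stra8*, *Meiosin* and *Ctcfl*. The 4 meiosis-specific cohesin subunits and the ubiquitous *Smc1a* had the same order. That order was shared by 8.67% of all genes tested, and *Meiosin* had been picked for its nearness to *Rec8*. *Sohlh1*, looked at in the same way, was at 38.13, 38.11, 35.9 and 37.3 CPM in *Tra2b-cPEko* replicates A to D, without that order. The axis and synaptonemal complex genes *Sycp1*, *Sycp2* and *Sycp3* had another order in the same mice, but not every gene of that complex did. *Syce1* was at 59.4, 64.7, 58.2 and 56.1 CPM in *Tra2b-cPEko* replicates A to D, highest in replicate B and lowest in replicate D. *Sycp3* was at 209.7, 180.0, 214 and 208 CPM in *Tra2b-cPEko* replicates A to D, with replicate B the lowest, and *Sycp1* (273 CPM) and *Sycp2* (297 CPM) were also lowest in replicate B.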
